A study of Mus musculus with 6 samples.

Results

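The BCL2 family decides whether mitochondria stay intact when a cell is stressed or deprived of growth factors. Its survival proteins bind and hold back the pore formers BAX and BAK, and the BH3-only proteins set the pore formers free by occupying the survival proteins or by contacting the pore formers directly. In T cells the balance between the survival protein BCL2 and the BH3-only protein BIM governs how many cells remain when an activated population contracts, and regulatory T cells also depend on MCL1. The genes described here are the survival genes Bcl2, Bcl2l1 (BCL-XL) and Mcl1, the pore formers Bax and Bak1, and the BH3-only genes Bcl2l11 (BIM), Bid, Bad, Bbc3 (PUMA) and Pmaip1 (NOXA). They were found by gene symbol among the 41174 non-control probes of the array, which holds 19 probes for these 10 genes, and 18 of the 19 were bright enough to be tested.

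RNA came from induced regulatory T (iTreg) cells of 3 miR-31fl/fl CD4Cre mice, called cKO, and 3 miR-31fl/fl control mice, all 6 weeks old and on a C57BL/6 background. Both groups carried the floxed miR-31 allele, and only the cKO mice carried the Cre gene, which under the CD4 promoter is also active in thymocytes that later become CD8 cells. Naive splenic CD4+ cells sorted as CD25-, Foxp3gfp- and CD62Lhi were cultured for 4 days with TGF-β1 at 5 ng/ml and IL-2 at 40 ng/ml, over plate-bound anti-CD3 (5 μg/ml) with soluble anti-CD28 (2 μg/ml), and the labels name no second sort before RNA extraction. The methods of the study give another IL-2 dose for iTreg cultures and name lymph nodes beside the spleen as a source of T cells. The sources do not settle which dose or tissue was used. The methods also state that for some experiments the mice were crossed with Foxp3gfp reporter mice. One Cy3-labelled array was read for each mouse, and with 3 arrays in each group the spread between mice sets how finely a difference can be read.

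The microRNA deleted in the cKO mice is miR-31, whose 5p strand is shown because a transcript that it binds would pair with its seed. The seed, bases 2 to 8, is in capitals, and the sequence is from RefSeq (GRCm38.p6, chr4:88910614-88910635, minus strand).
mmu-miR-31-5p: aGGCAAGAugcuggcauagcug
No probe on the array was named for miR-31, so the deletion itself was not measured. The DNA letters that pair with this seed are TCTTGCC, and they were looked for on the transcript strand of the 60-base probes, which cover only a small stretch of each transcript. Among the 19 member probes, 1 held these letters, the Pmaip1 probe, against 0.323% of all 41174 probes. The 89 tested probes that held them had a median log2 fold change of -0.03, beside -0.04 for all tested probes. In limma 0 of the 89 had an adjusted p under 0.05, and 16 had an unadjusted p under 0.05, a level that 23.0% of all tested probes reached. The cKO and control values did not overlap for 25.8% of the 89, beside 36.6% of all tested probes. The match in Pmaip1 is a description of the probe and not of a binding site.

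Each value below is the log2 of the background-subtracted signal minus that array's 75th percentile, so that 0 is the level that 25% of spots exceeded, and a fold change is the cKO mean minus the control mean on this scale. Levels of different probes cannot be set against each other, because probes differ in how strongly they bind. Between 49.3% and 57.7% of spots stood well above background on an array, with a mean of 54.2% ± 3.50 (SD, n = 3) in cKO and 53.7% ± 3.98 (SD, n = 3) in control samples (exact two-sided permutation test, p = 0.80; the smallest p this design allows is 0.10). Pearson correlations across the tested probes were 0.984 to 0.989 between control arrays and 0.974 to 0.985 between cKO arrays. Between a cKO and a control array they were 0.948 to 0.984, a range that overlaps that of the cKO arrays. The 3 cKO arrays and control 1 were on 1 slide and controls 2 and 3 on another, so genotype and slide are partly confounded. For that reason the value within slide 1, where the 3 cKO arrays face control 1 alone, is given beside the main results, and it is also the value obtained with the slide as a term in the model. The array cKO 3 gave the highest or the lowest value of the 6 for 15 of the 18 tested member probes, as it did for 63.3% of all tested probes.

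In cKO iTreg cells, 3 BH3-only genes stood higher than in control cells in every array, namely Bbc3 by 2.18-fold, Pmaip1 by 1.99-fold and Bcl2l11 by 1.82-fold at its brightest probe. The survival gene Bcl2 stood lower, by 1.35-fold at its brightest probe, also without overlap between the groups. The BH3-only gene Bid stood lower as well, by 1.37-fold, and the pore former Bak1 by 1.19-fold at its brightest probe, both without overlap. The survival gene Bcl2l1 was higher on average at all 3 of its probes, by 1.12-fold at the brightest, with overlapping groups. None of the 18 tested member probes passed the adjusted threshold of 0.05 in limma, whereas 0.242% of all 22281 tested probes did, 0.0943% as lower ones. The methods' t-test gave 0 member probes after adjustment as well, and 4 at an unadjusted p under 0.05, a level that 18.0% of all tested probes reached in that test. In limma there were 5 member probes at an unadjusted p under 0.05, 4 higher and 1 lower, and 23.0% of all tested probes reached the same level. The groups did not overlap for 10 of the 18 member probes, 5 higher and 5 lower in cKO, while 36.6% of all tested probes showed no overlap, 15.9% with the cKO arrays higher and 20.7% with them lower. The median log2 fold change was 0.15 over the member probes and -0.04 over all tested probes.

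**Figure D1:**
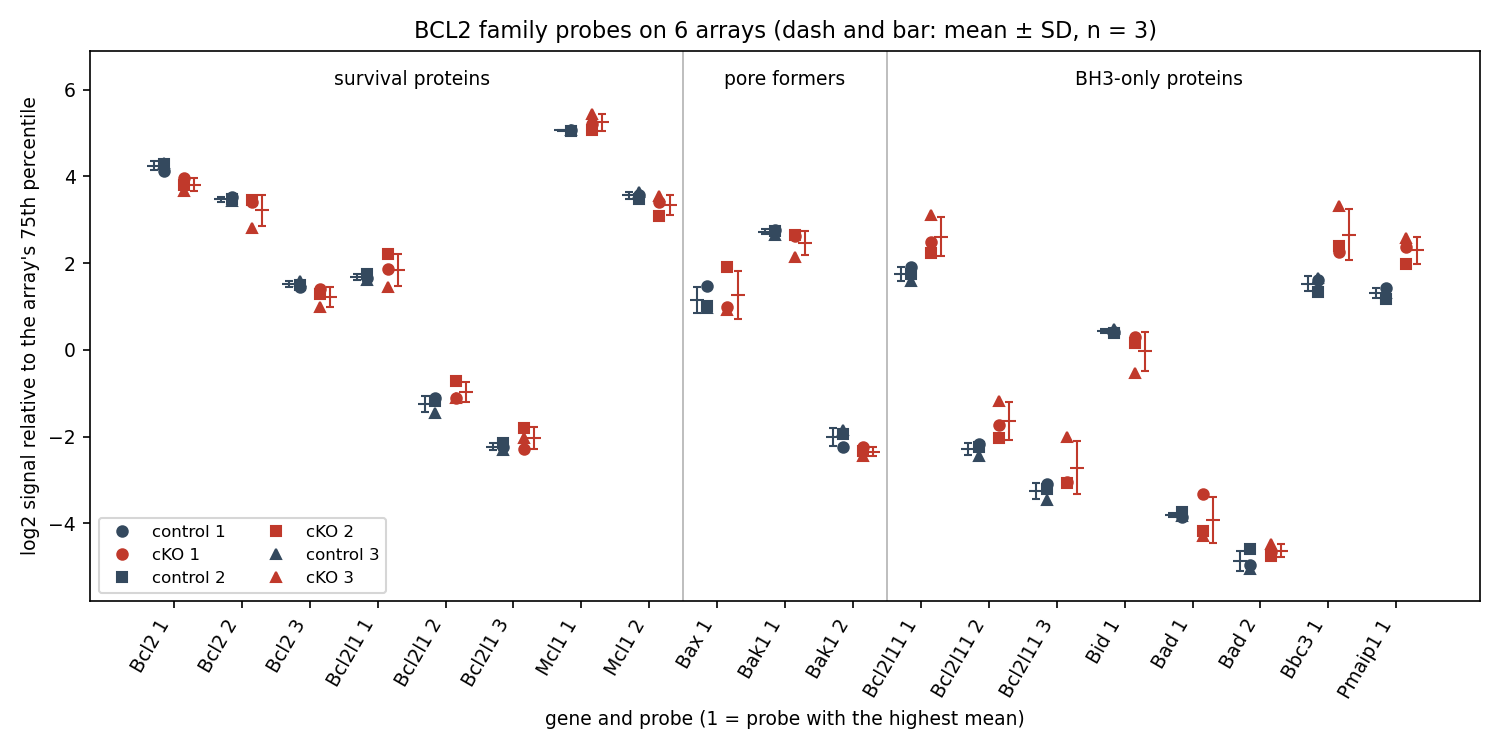
Values in log2 units above or below each array's 75th percentile (vertical axis) for the 19 probes of the 10 genes (horizontal axis, probes of a gene numbered from the highest mean), 3 control arrays in dark grey and 3 cKO arrays in red, with mean ± SD beside the points. The cKO points of Bcl2l11, Bbc3 and Pmaip1 all lie above the control points, and cKO 3 is the farthest of the cKO arrays for all of them.

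The survival genes did not move together. Bcl2 was measured by 3 probes on chromosome 1 (mm9, minus strand). The brightest, for NM_009741 at chr1:108434793-108434852, read 3.97, 3.80 and 3.67 in cKO 1 to 3 and 4.13, 4.29 and 4.32 in controls 1 to 3. All cKO arrays lay below all control arrays there, with a gap of 0.16 between cKO 1 and control 1. The log2 fold change was -0.44 (SE 0.12, 95% interval -0.73 to -0.14), with an unadjusted p of 0.0111 and an adjusted p of 0.148 in limma, and -0.32 within slide 1. The probe for NM_177410, the transcript with the shorter BCL2 protein, at chr1:108608970-108609029, read 3.40, 3.45 and 2.81 in cKO and 3.53, 3.47 and 3.43 in control samples. Here only cKO 3 lay clearly below the controls, and the log2 fold change of -0.25 (SE 0.19, adjusted p = 0.428) became -0.05 without that array. The remaining probe, for AK077913 at chr1:108607310-108607369, gave 1.41, 1.28 and 0.98 in cKO against 1.46, 1.49 and 1.59 in control samples. The groups did not overlap, by a margin of 0.05, and the log2 fold change was -0.29 (SE 0.14, adjusted p = 0.259) and -0.17 without cKO 3. The sign was thus negative at all 3 Bcl2 probes, which read the same RNA samples and are not independent.

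Bcl2l1 encodes BCL-XL, a survival protein induced by CD28 costimulation. Its 3 probes, all for NM_009743 on chromosome 2 (mm9, minus strand), gave overlapping groups. The brightest, at chr2:152606631-152606690, read 1.86, 2.20 and 1.46 in cKO and 1.66, 1.74 and 1.61 in control samples. Both the highest and the lowest of these values were cKO arrays, and the log2 fold change was 0.17 (SE 0.19, 95% interval -0.30 to 0.64, adjusted p = 0.601), which became -0.01 without cKO 2. The probe at chr2:152655185-152655244 had a log2 fold change of 0.27 (SE 0.16, adjusted p = 0.331), and that at chr2:152655730-152655789 one of 0.19 (SE 0.15, adjusted p = 0.440). The data leave room for a change of Bcl2l1 of up to 0.67 at these probes, the largest upper bound of their 95% intervals.

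Mcl1 encodes a short-lived survival protein that binds BIM and NOXA. Its probes for NM_008562 on chromosome 3 (mm9, plus strand) differed in sign. The brighter one, at chr3:95466855-95466914, read 5.22, 5.07 and 5.45 in cKO and 5.07, 5.05 and 5.08 in control samples. The 3 control arrays were nearly equal, and only cKO 1 and cKO 3 lay clearly above them, for a log2 fold change of 0.18 (SE 0.13, 95% interval -0.13 to 0.49, adjusted p = 0.400). The other, at chr3:95465543-95465602, read 3.41, 3.08 and 3.54 in cKO and 3.57, 3.48 and 3.64 in control samples, a log2 fold change of -0.22 (SE 0.15, adjusted p = 0.373). The mean over both probes gave -0.02, and normexp background correction with the 75th percentile gave -0.12 for the brighter probe, so that no direction is given for Mcl1.

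Of the pore formers, Bak1 stood lower in cKO samples without overlap and Bax did not. Bak1 was read by 2 probes for NM_007523 on chromosome 17 (mm9, minus strand). The brighter, at chr17:27156967-27157026, gave 2.63, 2.64 and 2.15 in cKO and 2.77, 2.75 and 2.66 in control samples. The gap between the groups was 0.02, and the log2 fold change of -0.25 (SE 0.16, adjusted p = 0.355) became -0.09 without cKO 3. The other, at chr17:27158232-27158291, gave -2.24, -2.33 and -2.46 in cKO against -2.24, -1.95 and -1.86 in control samples. Here cKO 1 and control 1 were equal to 2 decimals, and the log2 fold change was -0.33 (SE 0.14, adjusted p = 0.218), -0.11 within slide 1 and 0.18 with normexp and the 75th percentile. Bax was read by 1 probe printed on 10 spots, for NM_007527 at chr7:52721469-52721624 (mm9, minus strand). It gave 0.99, 1.90 and 0.93 in cKO and 1.48, 1.01 and 0.96 in control samples. The groups overlapped with cKO 2 highest, and the log2 fold change of 0.12 (SE 0.30, 95% interval -0.61 to 0.85, adjusted p = 0.817) turned to -0.21 within slide 1 and to -0.19 without cKO 2.

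Of the BH3-only genes, Bcl2l11 encodes BIM, which binds all the survival proteins and is required for the death of activated T cells once cytokine is withdrawn. Its 3 probes lie on chromosome 2 (mm9, plus strand), and the values of all 3 were higher in every cKO array than in any control array. The brightest, for NM_207680 at chr2:127988051-127988110, read 2.49, 2.23 and 3.12 in cKO and 1.92, 1.76 and 1.58 in control samples. The lowest cKO array lay 0.32 above the highest control array. The log2 fold change was 0.86 (SE 0.24, 95% interval 0.28 to 1.45), with an unadjusted p of 0.0111 and an adjusted p of 0.148 in limma, 0.70 within slide 1 and 0.61 without cKO 3. A probe for the same transcript whose 60 bases span an intron, between chr2:127972893 and 127983988, read -1.73, -2.04 and -1.17 in cKO and -2.18, -2.23 and -2.44 in control samples. Its log2 fold change was 0.63 (SE 0.23, adjusted p = 0.193), and again cKO 3 was the highest array, without which the value was 0.40. The probe for ENSMUST00000129206, between chr2:127954736 and 127955417, read -3.06, -3.08 and -2.02 in cKO and -3.10, -3.20 and -3.46 in control samples. There the groups were separated by only 0.02, and the log2 fold change of 0.54 (SE 0.31, adjusted p = 0.322) became 0.18 without cKO 3.

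Bbc3 encodes PUMA, a BH3-only protein induced by p53 and by FoxO factors. Its only probe, for NM_133234 at chr7:16903403-16903462 (mm9, plus strand), read 2.25, 2.39 and 3.33 in cKO and 1.60, 1.33 and 1.66 in control samples. The groups were separated by 0.59, with the cKO arrays higher, and cKO 3 stood apart from the other two. The log2 fold change of 1.13 (SE 0.30, 95% interval 0.40 to 1.85) was the largest among the members in size, with an unadjusted p of 0.00882 and an adjusted p of 0.142 in limma. It was 1.06 within slide 1, and 0.79 without cKO 3.

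Pmaip1 encodes NOXA, which binds chiefly MCL1. Its only probe, for NM_021451 at chr18:66625088-66625147 (mm9, plus strand), read 2.37, 1.97 and 2.57 in cKO and 1.42, 1.18 and 1.32 in control samples. The groups were separated by 0.55, and this probe had the smallest p of all member probes. The log2 fold change was 0.99 (SE 0.18, 95% interval 0.57 to 1.42), with an unadjusted p of 0.00118 and an adjusted p of 0.0896 in limma. It was 0.88 within slide 1, and 0.86 without cKO 3, the highest array. Once limma allowed for the slide, Pmaip1 was the only member probe left at an unadjusted p under 0.05, a level that 7.39% of all tested probes reached in that fit. Its log2 fold change lay between 0.78 and 1.16 under all alternatives tried.

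Of the other BH3-only members, Bid stood lower in cKO samples, and no direction is given for Bad. Bid, whose protein is cut by caspase-8 and so links death receptors to mitochondria, was read by 1 probe for NM_007544 at chr6:120843464-120843523 (mm9, minus strand). It gave 0.30, 0.16 and -0.54 in cKO and 0.42, 0.40 and 0.48 in control samples. All cKO arrays lay below the controls, cKO 3 by far the lowest, and the log2 fold change of -0.46 (SE 0.23, 95% interval -1.01 to 0.10, adjusted p = 0.271) became -0.20 without cKO 3. Bad, whose protein is held inactive by phosphorylation when growth factors are present, had 2 dim probes. The probe named Bad for AK029400, at chr19:7025594-7025653, is annotated on the minus strand, opposite to the NM_007522 probe at chr19:7016618-7016677 (mm9), so that it does not read the same strand. The AK029400 probe was well above background on 2 arrays of each group and gave a log2 fold change of -0.12 (SE 0.26, adjusted p = 0.792) with the groups overlapping. The NM_007522 probe was well above background on 1 array of each group, cKO 3 and control 2, and was not tested. It read between -4.76 and -4.48 in cKO and between -5.05 and -4.60 in control samples.

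**Figure D2:**
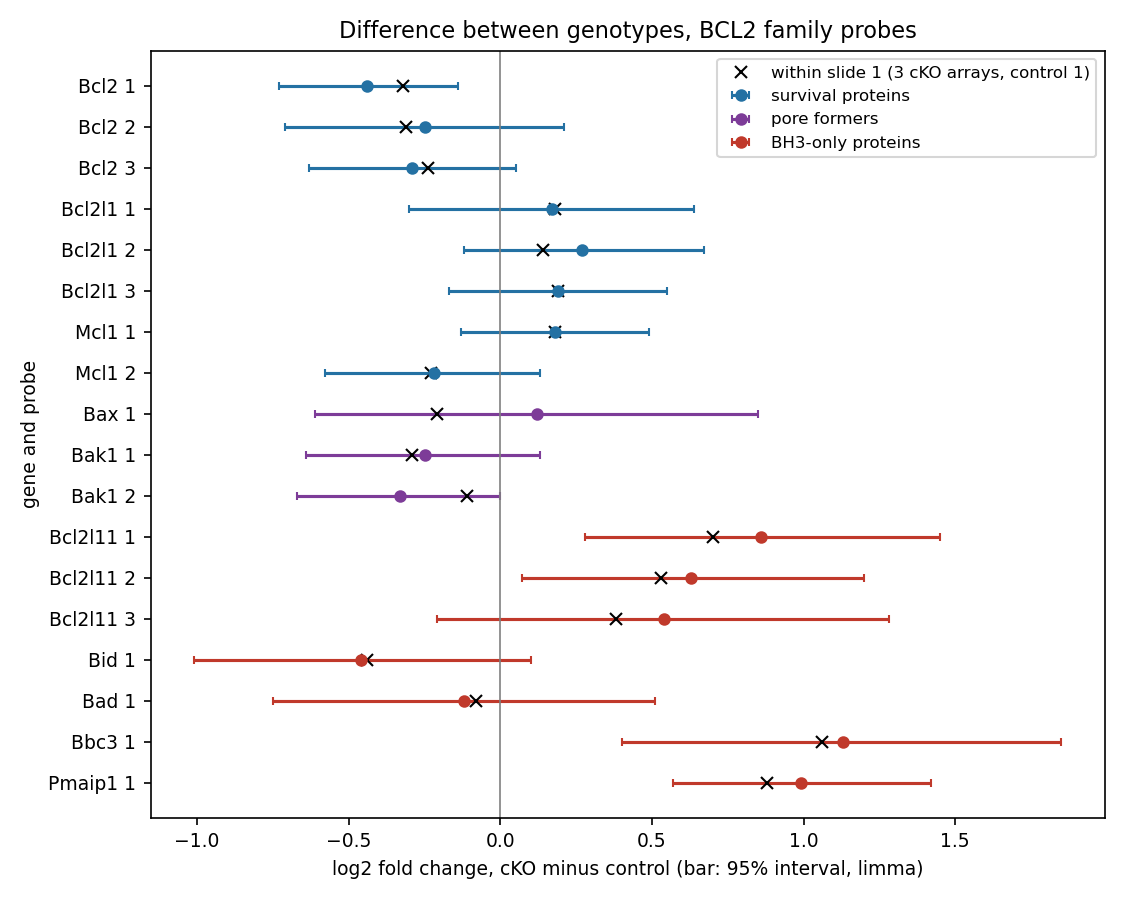
Log2 fold change, cKO minus control (horizontal axis), of the 18 tested probes (vertical axis), coloured by role, with the 95% interval of limma as bars and the value within slide 1 as crosses. The probes of Bcl2l11, Bbc3 and Pmaip1 lie right of 0, between 0.54 and 1.13, and the 3 Bcl2 probes lie left of it. The probes of Bid and Bak1 also lie left of 0, and those of Bcl2l1 right of it. The cross lies on the other side of 0 for Bax.

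Within each array, the distance between BIM and the survival transcripts was also read, since a factor common to an array drops out of it. Only its change between groups has a meaning, because the probes differ. The log2 value of Bcl2l11 minus that of Bcl2, at their brightest probes, was -1.48, -1.57 and -0.55 in cKO and -2.22, -2.54 and -2.74 in control samples. The cKO arrays were all higher, with means of -1.20 ± 0.56 and -2.50 ± 0.26 (SD, n = 3) and a change of 1.30. For Bcl2l11 minus Mcl1 the values were -2.73, -2.84 and -2.34 in cKO and -3.15, -3.30 and -3.50 in control samples. Again no cKO array overlapped a control array, and the change was 0.68. Both differences contain the Bcl2l11 values given above and add no independent evidence on them, and they were not tested. For Bcl2l11 minus Bcl2 the separation was fixed beforehand, because both genes already separated in opposite directions at these probes.

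**Figure D3:**
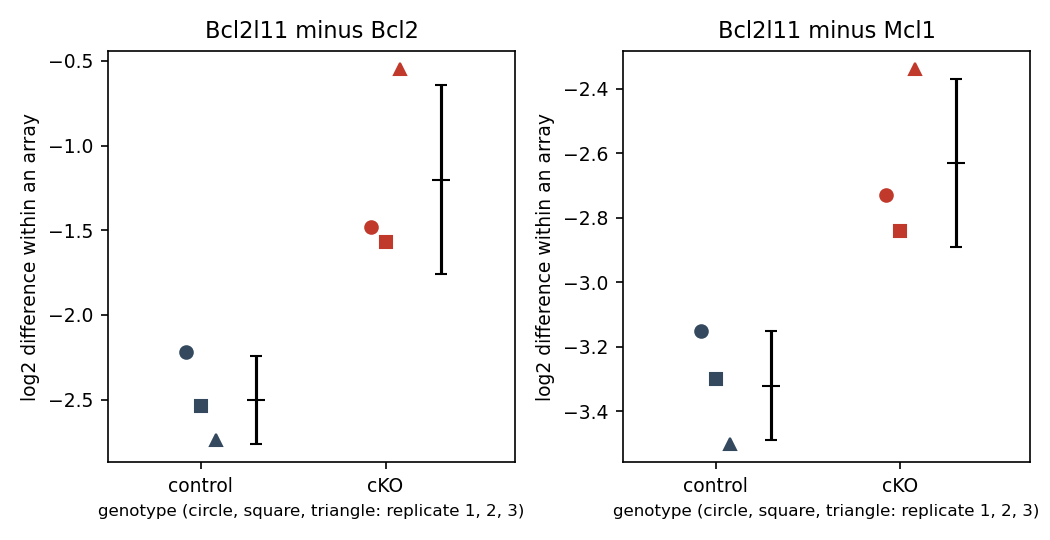
Difference of log2 values within an array (vertical axis), Bcl2l11 minus Bcl2 on the left and Bcl2l11 minus Mcl1 on the right, for 3 control and 3 cKO arrays (circle, square and triangle for replicates 1, 2 and 3), with mean ± SD. The cKO arrays lie above the control arrays in both panels, and cKO 3 is the highest.

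Over the 6 arrays, the genes whose values were most like those of Bcl2l11 were Lpar2 (Pearson r = 0.999), Sat1 (0.998) and Ccng1 (0.997), and those most like Bcl2 were Tubgcp5, Nbn and Ube2g2 (0.996 each). These are the highest of 19861 probes compared over 6 arrays that share the genotype difference, and are given as a description. Ccng1, for example, read 2.28, 2.17 and 2.58 in cKO and 2.06, 2.00 and 1.94 in control samples, with cKO 3 the highest, as for Bcl2l11.

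The promoters of the members were compared with all promoters, since FoxO factors, which AKT signalling keeps out of the nucleus, are known to act on Bcl2l11 and Bbc3. RefSeq promoter sequences (GRCm38.p6) were read over the 250 bases before each gene start, and entries were found for 9 of the 10 members. The FoxO core motif GTAAACA, on either strand, was found upstream of 2 of the 9, Bcl2l11 and Bbc3, and in 3.54% of all 27025 genes. Counted by promoter entry, it was found in 3.17% of all 32851. The E-box CACGTG was found for Bax and Bbc3 and in 6.86% of all genes, the STAT motif TTCNNNGAA for 0 of the 9 members and in 8.13% of all genes, and the GC box GGGCGG for 7 of the 9 members and in 35.4% of all genes. The 250 bases before the Bcl2l11 start with the match, and 30 bases around the match for Bbc3, are printed with the FoxO core in capitals, which in Bbc3 reads on the other strand.
Bcl2l11, chr2:128125788-128126037, plus strand: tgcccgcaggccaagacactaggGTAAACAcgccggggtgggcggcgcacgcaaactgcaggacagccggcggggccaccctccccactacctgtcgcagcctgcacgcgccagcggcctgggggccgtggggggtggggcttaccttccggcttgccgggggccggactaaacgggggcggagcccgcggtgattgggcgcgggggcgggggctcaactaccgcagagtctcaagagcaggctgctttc
Bbc3, chr7:16310083-16310112, plus strand: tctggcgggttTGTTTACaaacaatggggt
The match ends 220 bases before the start in Bcl2l11 and 160 bases before it in Bbc3, each in 1 of the gene's entries (2 for Bcl2l11, 3 for Bbc3). These are matches of letters, and no binding was measured. The motifs were chosen after the values were seen, and the FoxO core because of its known action on these 2 genes. Its counts are therefore a description, and a part of FoxO factors in the values was not tested. Of the FoxO genes, Foxo1 had a log2 fold change of 0.10 (SE 0.11, adjusted p = 0.588) and Foxo4 one of -0.57 (SE 0.27, adjusted p = 0.257), and Foxo3 was too dim to be tested.

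Among the other genes of the BCL2 family, 13 of 17 listed could be tested, each by its brightest probe. Bcl2l15 was the only one to pass the adjusted threshold, and it fell in cKO samples. It read -1.71, -1.37 and -1.58 in cKO and -0.34, -0.23 and 0.00 in control samples. The groups were far apart, with a log2 fold change of -1.36 (SE 0.14), but the adjusted p of 0.0488 in limma lay at the edge of the threshold. Its direction held under all alternatives, with log2 fold changes between -1.45 and -0.97, while the adjusted p was 0.188 without the filter on dim probes, 0.315 with the slide as a term and between 0.0565 and 0.185 when 1 array was left out, and at most 0.553 under any alternative.

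At an unadjusted p under 0.05 in limma there were 7 of these 13 genes, 6 higher and 1 lower. Of all 14357 genes at their brightest tested probe, 1728 were higher and 1651 lower at this level. Bmf encodes a BH3-only protein that, like BIM, is held at the cytoskeleton. Its brightest probe read -1.64, -2.07 and -0.73 in cKO and -2.73, -3.17 and -3.58 in control samples, a log2 fold change of 1.68 (SE 0.39, adjusted p = 0.120). No cKO array overlapped a control array, but a dimmer Bmf probe gave 0.50 (SE 0.33, adjusted p = 0.375) with overlap. Bcl2l14 had a log2 fold change of 1.98 (SE 0.47, adjusted p = 0.123) and 1.13 at its second tested probe, both without overlap. Bcl2l2, which encodes the survival protein BCL-W, had one of 0.68 (SE 0.19, adjusted p = 0.146), so that a survival gene stood on the same side as the BH3-only genes. Bnip3 and Bnip3l, whose proteins take part in the removal of mitochondria under hypoxia, had log2 fold changes of 0.81 (SE 0.25) and 0.77 (SE 0.19), and Bcl2l12 one of 0.46 (SE 0.15). For these 3 the adjusted p lay between 0.132 and 0.169, and the groups did not overlap.

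The remaining family genes gave smaller values. Becn1, which acts in autophagy, had a log2 fold change of -0.16 (SE 0.13) and Bcl2l13 one of -0.17 (SE 0.18). Bik had -0.22 (SE 0.27) and turned to 0.38 within slide 1, Bok had -0.07 (SE 0.37) and Bnip1 0.04 (SE 0.10). Bcl2a1b, a survival gene of activated lymphocytes, had 0.16 (SE 0.18), but its near-identical copies Bcl2a1a and Bcl2a1d had no probe of their own name, and the signal cannot be assigned to 1 copy. Hrk and Bcl2l10 were too dim to be tested. The median log2 fold change of the 13 genes was 0.16, and 8 of them had groups that did not overlap, as had 38.0% of all 14357 genes at their brightest tested probe.

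Downstream of the pore, the 17 listed genes of the mitochondrial death machinery, caspases and their inhibitors gave 0 adjusted calls. Unadjusted, 3 of the 17 had a p under 0.05 in limma, 1 higher and 2 lower, beside 3379 of all 14357 genes at their brightest tested probe. The groups did not overlap for 7 of the 17, or 41.2%, beside 38.0% of all genes. Diablo, which encodes the SMAC protein that leaves mitochondria and disarms caspase inhibitors, read 2.17, 1.90 and 1.24 in cKO and 2.42, 2.52 and 2.88 in control samples. No cKO array reached a control array, and the log2 fold change was -0.84 (SE 0.26, adjusted p = 0.167), -0.65 within slide 1 and -0.57 without cKO 3. Only the brighter of the 2 tested Diablo probes is given. Birc5, which encodes survivin, a protein of dividing cells, had -0.44 (SE 0.17, adjusted p = 0.207) and -0.27 without cKO 3. Casp9, the caspase that the apoptosome activates, had 0.31 (SE 0.11, adjusted p = 0.188). The list's median log2 fold change was -0.06.

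Of 11 death receptor genes, 0 were called after adjustment. An unadjusted p under 0.05 in limma, which 3379 of all 14357 genes had at their brightest tested probe, was reached by 1 of the 11. This was Tnfrsf10b, the mouse receptor for TRAIL, with a log2 fold change of 0.37 (SE 0.12, adjusted p = 0.177). Only the brightest of the 3 tested Tnfrsf10b probes is given. The list's median was -0.06, and 2 of the 11 had groups that did not overlap, beside the 38.0% of all genes. Of the 24 regulators listed, 22 could be tested and 0 were called. The groups did not overlap for 7 of the 22, or 31.8%, beside 38.0% of all genes. An unadjusted p under 0.05 was reached by 1 of them, Pim2, again beside 3379 of all 14357 genes. Pim2, which encodes a kinase that phosphorylates BAD and supports survival of lymphocytes, read 3.01, 2.68 and 2.88 in cKO and 2.15, 2.10 and 1.95 in control samples. No cKO array overlapped a control array, and the log2 fold change was 0.79 (SE 0.13, adjusted p = 0.0728) and 0.71 within slide 1. Only the brightest of the 3 tested Pim2 probes is given. The p53 gene Trp53 had -0.20 (SE 0.21) and its target Mdm2 0.14 (SE 0.10), and Ddit3, which encodes CHOP, an activator of Bcl2l11 under endoplasmic reticulum stress, had 0.49 (SE 0.23, adjusted p = 0.250). The median of the regulators was -0.17.

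**Figure D4:**
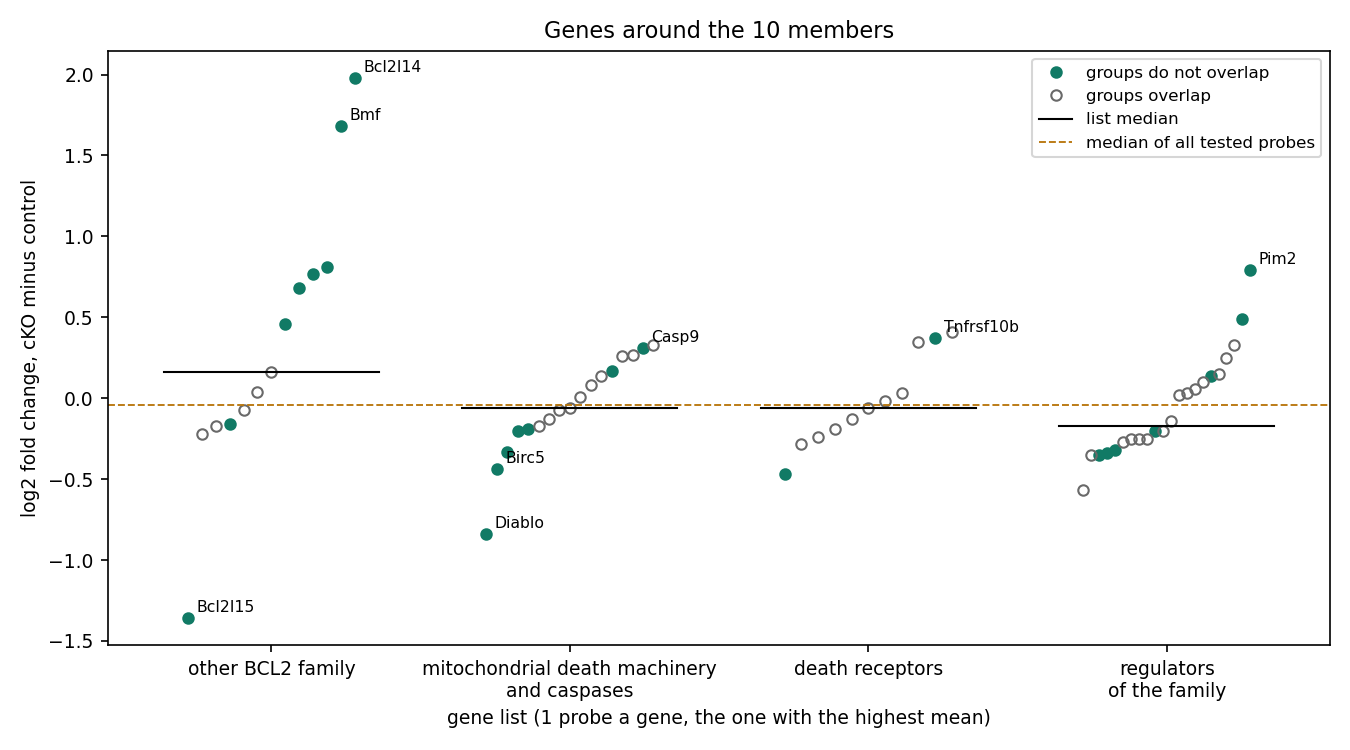
Log2 fold change, cKO minus control (vertical axis), of the tested genes of 4 lists (horizontal axis), 1 point a gene, filled where the groups did not overlap, with each list's median as a black line and the median of all tested probes, -0.04, as a dashed line. The other BCL2 family genes spread most widely, from -1.36 for Bcl2l15 to 1.98 for Bcl2l14, and the death receptor genes lie between -0.47 for Fadd and 0.41 for Fasl.

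The cultures were bulk samples, in which fewer cells of a type and less RNA per cell cannot be told apart. The defining T-cell genes were well above background on all arrays, and 5 of the 6 T-cell markers had groups that did not overlap, 4 higher and 1 lower in cKO, beside 38.0% of all genes without overlap. Their summed level (relative to the 75th percentile, linear scale) was 171 to 214 in cKO and 153 to 162 in control samples. Of the 6 iTreg markers 2 did not overlap, Ctla4 with a log2 fold change of 0.94 and Foxp3 with -0.62. On average 4 of the 6 were higher and 2 lower in cKO, the other lower one being Il2ra (-0.56, with overlap). The 6 summed to 181 to 205 in cKO and 140 to 185 in control samples. Most of this sum came from Tnfrsf18 (mean 7.22 in cKO and 6.81 in control samples, with overlap), so it does not follow Foxp3. The cells were sorted as CD4+, yet Cd8a and Cd8b1 were well above background on all arrays, with a summed level of 3.87 to 4.34 in cKO and 4.42 to 5.61 in control samples. The epithelial list summed to 1.30 to 1.95 in cKO and 0.805 to 0.901 in control samples, with 2 of its 4 genes, Epcam and Cdh1, not overlapping and Krt8 well above background on 0 arrays. The erythroid list summed to 0.508 to 1.06 in cKO and 0.201 to 0.410 in control samples, with Hbb-b1 alone not overlapping and Alas2 well above background on 0 arrays. The NK list summed to 0.396 to 1.14 in cKO and 0.125 to 0.439 in control samples, the B-cell list to 0.565 to 1.36 and 0.412 to 0.661, and the myeloid list to 0.161 to 1.21 and 0.325 to 0.340. The highest myeloid sums, in cKO 2 and cKO 3, came mostly from 1 Fcgr3 probe. That probe read -5.62, 0.08 and 0.08 in cKO and -2.15, -2.36 and -6.02 in control samples. Most genes of these 3 lists were too dim to be tested, and the tested ones, 1 of 3 NK, 2 of 4 B-cell and 2 of 6 myeloid genes, had groups that overlapped. Of the dim ones, the NK receptor gene Ncr1 read -4.27, -4.41 and -4.23 in cKO and -5.88, -5.84 and -6.58 in control samples. It was higher in every cKO array and cleared the background on 2 of them, and on 0 arrays of the controls. Ms4a1 was well above background on 1 array, cKO 3, and Klrb1c and Adgre1 on 0 arrays. The part of these other cells in the BCL2 family values was not tested.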

How the data were processed

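Gene expression was measured on 6 one-colour arrays, 3 cKO and 3 control, grouped by the sample titles. The authors extracted each spot with Agilent Feature Extraction (version 10.7.3.1 in the file headers, 9.1 in the submitters' processing notes), and the deposited spot intensity is linear, background-subtracted and not normalized between arrays. A deposited table of log2 values, with a median of 6.15 on every array, correlates with the same arrays' log2 signal at r = 0.998 or above, and was read as quantile-normalized. Its 6 columns were all assigned, with 0 left over, and it holds no comparison. Deposited spot flags, coded 0 or 1, give outliers, saturation (0 spots) and signals well above background.

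Values were computed as log2 processed signal minus the array's 75th percentile over non-control spots (987.4 to 1147.5). Between 123 and 140 outlier spots an array were dropped, and the spots of a probe were averaged on the log2 scale. The 22281 probes that at least 3 of 6 arrays showed well above background were fitted with limma 3.58.1 (lmFit and eBayes, R 4.3.3, statmod 1.5.0), with Benjamini-Hochberg adjustment over all of them and a threshold of 0.05. Of these, 19 lacked a value on 1 array. Positions and symbols are those of the array design (mm9), and all 10 symbols matched RefSeq. Where several probes name a gene, the one with the highest mean stands for it. The steps were tested on simulated data. Tables used Python 3.11.15, pandas 2.3.3 and scipy 1.17.1, and figures matplotlib 3.10.9.

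The members, gene lists and alternatives were chosen with earlier results of these data known. Some listed genes are not reported here and were left out of their lists, without regard to their values. Named genes are the members with every probe, the other BCL2 family genes, from each other list up to 2 rises and 2 falls with an unadjusted p under 0.05 and no overlap, and the 3 genes most like Bcl2 and Bcl2l11. Foxo1, Foxo3, Foxo4, Trp53, Mdm2 and Ddit3 were named in addition, after their values were seen, as were the motifs searched. The mice are separate animals. Same-numbered arrays of the groups did not deviate together (r = -0.14, 0.01 and -0.19), so replicate numbers were not taken as pairs. Alternatives, tried one at a time, were quantile normalization with or without normexp (offset 50), normexp with the 75th percentile, scaling to the median, the authors' table, no filter or a stricter one on dim probes, the methods' t-test, a trended and robust eBayes, a term for the replicate number or for the slide, the arrays of slide 1 alone, each array left out, 1 probe a gene, and the mean over a gene's probes.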

Additional observations from a re-analysis of the deposited data

How the results depend on the processing

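The number of member probes with an adjusted p under 0.05 was 0 under every alternative tried. The count of all tested probes varied, and 64 adjusted p values lay between 0.04 and 0.06 in the fit as reported. It was 54 as reported, 115 with normexp and quantile normalization, 28 with quantile normalization or the authors' table, 174 where all 6 arrays had to be well above background, 105 with trend and robust fitting, and 0 with normexp and the 75th percentile, no filter, the methods' t-test, the replicate block, the slide as a term or slide 1 alone. Leaving out 1 array gave 0 to 1, with 1 only without control replicate 1. Member probes with an unadjusted p under 0.05 numbered 5 as reported (23.0% of all tested probes), 4 with the replicate block (16.3%) and 1 with the slide as a term (7.39%). With 1 array left out they numbered 4 to 7 (12.9% to 29.0% of all tested probes). Groups did not overlap for 10 member probes, and for 6 of the 10 genes with 1 probe a gene, beside 38.0% of all genes. With 3 arrays in each group, the count of member probes ran from 8 with the median as scaling point (31.9% of all tested probes) to 12 with normexp and the 75th percentile (27.5%). Where fewer arrays are compared, it was 11 to 13 with 1 array left out (42.2% to 53.4%) and 13 within slide 1 (58.0%). Normexp with the 75th percentile moved the median of all probes to 0.11, and under it the sign turned for Mcl1 (-0.12), the second Bak1 probe (0.18), Bad (0.72), Bcl2a1b (-0.03), Bok (0.59), Bik (0.12) and Bnip1 (-0.04). The slide as a term and slide 1 alone turned Bax (-0.21) and Bik (0.38), and the mean over probes turned Mcl1 (-0.02). With 1 array left out, values ranged from -0.01 to 0.36 for Bcl2l1, -0.19 to 0.29 for Bax, -0.42 to 0.06 for Bad, 0.00 to 0.32 for Bcl2a1b, -0.38 to 0.32 for Bok, -0.30 to 0.02 for Bcl2l13 and -0.01 to 0.09 for Bnip1. The cause was not tested. The replicate block changed no call of a member and removed that of Bcl2l15 (adjusted p = 0.225). Pim2 passed the adjusted threshold under 2 alternatives. Of 18 tested member probes, 13 kept their sign throughout, among them all those of Bcl2, Bcl2l11, Bbc3 and Pmaip1. Bad was near background, which limits its values.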
